A study of Mus musculus with 3 samples.

Results

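The 9 genes described here encode the colony-stimulating factors and their receptors. They were picked by symbol from 55418 annotated gene symbols and all 9 were found in the tables: the ligand genes Csf1, Il34, Csf2 and Csf3 and the receptor genes Csf1r, Csf2ra, Csf2rb, Csf2rb2 and Csf3r. The study sequenced rRNA-depleted total RNA of the cytosolic fraction of macrophages grown from bone marrow, which are primary cells, of C57BL/6J mice. All cells had been exposed to lipid A, the membrane anchor of bacterial lipopolysaccharide and the ligand of Toll-like receptor 4, with a dose of 100 ng/ml and an exposure of 90 min. There were 3 libraries in 1 group, each made from 1 µg of RNA, with no untreated, nuclear or other group to set it against. The labels number the libraries as biological replicates and give them 1 shared donor identifier, with sex and age not collected, so p-values measure only the spread between these libraries, which may be technical.

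Colony-stimulating factors are secreted proteins that keep myeloid cells alive, make them divide and direct their differentiation. CSF1 (M-CSF) and IL-34 share the receptor tyrosine kinase CSF1R, on which most macrophages depend. CSF2 (GM-CSF) binds a receptor of a specific alpha chain, CSF2RA, and the common beta chain CSF2RB, which also serves the receptors of IL-3 and IL-5. Mice carry a further beta chain, encoded by Csf2rb2, which works in the receptor for IL-3. CSF3 (G-CSF) acts through CSF3R, a receptor best known from neutrophils and their precursors.

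The libraries held 33821479 (replicate 1), 47843161 (replicate 2) and 59390843 (replicate 3) expected counts. All 9 macrophage markers of a fixed list, Csf1r among them, were at 1 TPM (a length-normalised share of a library's transcripts) or more and summed to 5296 to 7324 TPM, led by Lyz2 at 4347 ± 1009 TPM (SD, n = 3). Of 11 neutrophil and progenitor markers 3 reached 1 TPM and Ly6g was at 0, with sums of 24.7 to 42.6 TPM led by S100a9 at 19.3 ± 5.52 TPM. Sums were 3.07 to 3.95 TPM for 7 dendritic cell markers and 2.29 to 2.59 TPM for 5 endothelial markers. They were at most 0.85 TPM for mast cell and basophil, 0.70 TPM for B cell, 0.25 TPM for stromal and 0.06 TPM for T and NK cell markers. The levels below are for the whole sample, in which fewer cells of a type and less RNA per cell cannot be told apart.

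Csf1r and Csf1 were the most abundant members, Csf3 was scarce and Il34 was at or near 0. Levels are on the TPM scale, which is per transcript length and so lets genes be set beside each other. Csf1r was the most abundant member with 246, 193 and 219 TPM in replicates 1, 2 and 3 and Csf1 followed with 87.0, 70.5 and 64.7 TPM. Each level was set against the median, in the same library, of protein-coding genes averaging 1 TPM or more. This expressed-gene median was 7.38 TPM in replicate 1, 6.08 TPM in replicate 2 and 6.21 TPM in replicate 3. Of the 9 members, 7 lay above it (limma, Benjamini-Hochberg adjusted p under 0.05 and at least 1 log2 unit), where 20.5% of the 13327 genes tested did so. Csf3 lay below it, where 50.6% of the genes tested did so, and Il34 was too low to be tested. A small p here means that the difference repeated in all 3 libraries.

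**Figure D1:**
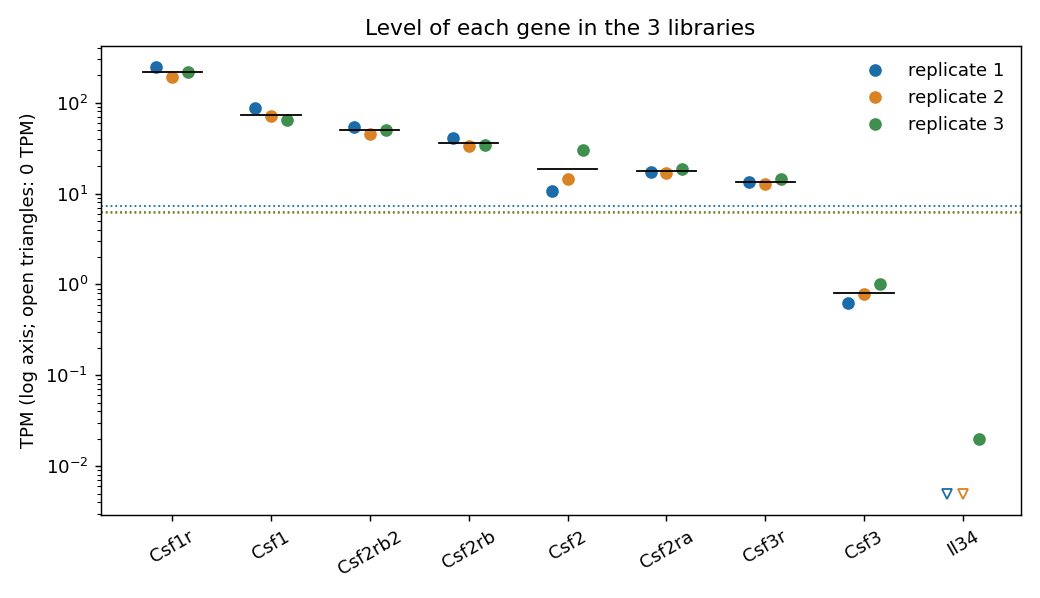
Level of each member in TPM on a log axis, for replicates 1, 2 and 3 (points), with the mean over the libraries as a black bar and the expressed-gene median of each library as a dotted line. Members run by mean level, with Csf1r at 219 TPM on the left and Il34, at 0 TPM in 2 libraries (open triangles, drawn at the foot of the axis), on the right.

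Csf1, the gene of M-CSF, lies on mouse chromosome 3 (mm10, 107741048 to 107760469, minus strand). Its level of 74.1 ± 11.6 TPM (SD, n = 3) was 3.47 ± 0.10 log2 units above the expressed-gene median (limma, adjusted p = 3.26e-05), and 97.6% of 21992 protein-coding genes had a lower mean. The libraries did not overlap in the deposited intervals of TPM, 83.7 to 87.5 in replicate 1, 68.5 to 71.1 in replicate 2 and 63.1 to 65.3 in replicate 3. As a share of all counts the gene varied less, with 473, 447 and 413 CPM (counts scaled to a fixed library total). Csf1 was the most abundant of the ligand genes in every library.

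Il34, the gene of the other CSF1R ligand, lies on chromosome 8 (110741829 to 110805924, minus strand). It had 0, 0 and 1 counts in replicates 1, 2 and 3, which gave 0, 0 and 0.02 TPM. The single count fell on Il34-205, a transcript annotated as non-coding. A count of 0 allows up to 3 counts, or 0.0342, 0.0212 and 0.0174 TPM on the main coding transcript in replicates 1, 2 and 3, a limit that covers counting error alone. The deposited intervals of TPM were wider and reached 0.71, 0.384 and 0.335 TPM. Il34 RNA was thus not detectable at this depth in replicates 1 and 2, and its single count in replicate 3 was under the limit of 3 counts.

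Csf2, the gene of GM-CSF, lies on chromosome 11 (54247271 to 54249667, minus strand). It had 10.6, 14.6 and 30.3 TPM in replicates 1, 2 and 3, from 357, 809 and 2054 counts. Replicate 3 held 2.86 times the TPM of replicate 1, and the deposited intervals of 9.37 to 11.5, 13.4 to 15.3 and 28.7 to 31.3 TPM did not overlap. In the second of the 2 deposited quantifications, described below, the values were 5.08, 5.83 and 9.36 TPM, a span of 1.84 times. The expressed-gene median there fell as well, with 4.99, 3.57 and 2.90 TPM in replicates 1, 2 and 3. The 2 spans of raw TPM are thus not on 1 scale. On counts, the SD of log2 CPM of Csf2 was 0.87 in the second and 0.91 in the first. In the first quantification, the mean difference of Csf2 from the expressed-gene median was 1.35 ± 0.88 log2 units (limma, adjusted p = 0.0319). Csf2 stood at 1.44, 2.39 and 4.89 times that median in replicates 1, 2 and 3. This call did not hold without replicate 2 (1.40 log2 units, adjusted p = 0.10) or without replicate 3 (0.88 log2 units).

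Csf3, the gene of G-CSF, lies on chromosome 11 as well (98701263 to 98703629, plus strand). It had 0.63, 0.78 and 1.02 TPM in replicates 1, 2 and 3, from 44, 88 and 141 counts. The mean of 0.810 ± 0.197 TPM was 2.89 log2 units under the expressed-gene median (limma, log2 difference −2.89 ± 0.44, adjusted p = 0.000392). Csf3 RNA was detected in every library, and Csf2 exceeded it by 16.9, 18.7 and 29.8 times on the TPM scale in replicates 1, 2 and 3.

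The Csf2 and Csf3 transcripts end in 3′ UTRs rich in the pentamer ATTTA, the core of the AU-rich elements through which proteins such as tristetraprolin (Zfp36) speed up decay of cytokine mRNAs. The densest 30 bases of each are shown 5′ to 3′, from the GENCODE M21 transcripts on the sense strand, with the pentamers in capitals.
Csf2, bases 230 to 259 of the 3′ UTR: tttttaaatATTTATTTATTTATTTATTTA
Csf3, bases 24 to 53 of the 3′ UTR: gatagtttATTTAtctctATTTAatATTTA
In Csf2, 5 overlapping pentamers share bases in this stretch, whereas the 3 in Csf3 stand apart. The whole Csf2 3′ UTR of 317 bases held 9 pentamers, or 28.4 per kb, and 4 matches of the longer form TTATTTATT, counting overlaps. Counting Csf2 itself, 0.0367% of 8181 expressed protein-coding genes with a 3′ UTR of at least 100 bases were as dense. The Csf3 3′ UTR of 669 bases held 6 pentamers, 8.97 per kb, a density that 1.19% of those genes reached, and no match of the longer form. Across the 8181 genes, 68.9% held a pentamer at a median density of 1.38 per kb, and 7.16% held the longer form. Csf1 with 4 pentamers, Csf1r with 3 and Il34 with 1 had 1.89, 1.80 and 2.28 per kb, and Csf2ra, Csf2rb, Csf2rb2 and Csf3r held none. A match describes the letters and is not evidence of a functional site.

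**Figure D2:**
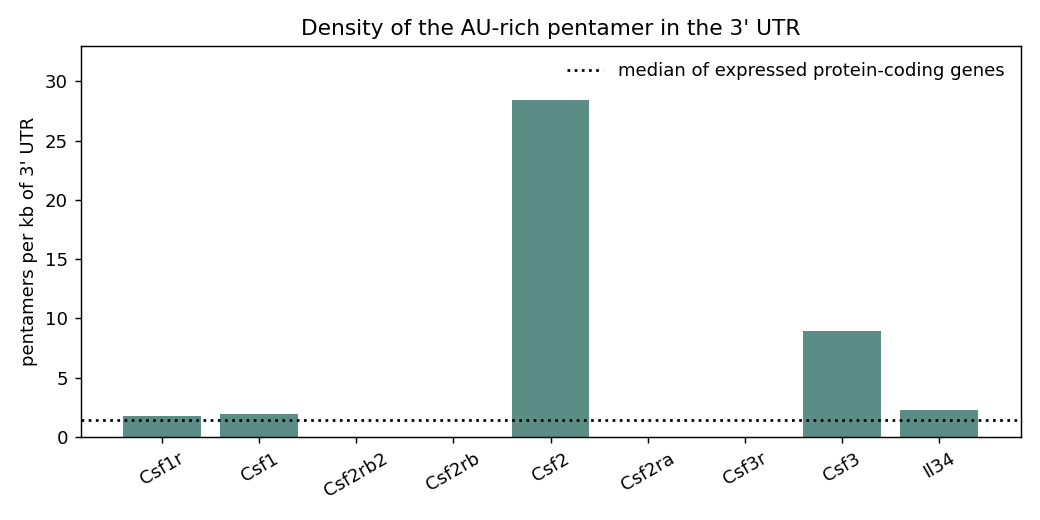
Number of AU-rich pentamers per kb of 3′ UTR in the main coding transcript of each member (bars), with members in order of mean TPM and the median of expressed protein-coding genes as a dotted line. Csf2 stands at 28.4 and Csf3 at 8.97 per kb, against a median of 1.38, and 4 receptor genes have none.

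Csf1r, the receptor tyrosine kinase gene, lies on chromosome 18 (61100598 to 61132149, plus strand). Its 219 ± 26.4 TPM (SD, n = 3) ranked 148 of 21992 protein-coding genes and was 32.9-fold above the expressed-gene median, or 5.04 ± 0.08 log2 units (limma, adjusted p = 3.17e-05). On the TPM scale it exceeded its ligand gene Csf1 by 2.82, 2.73 and 3.39 times in replicates 1, 2 and 3. The last 873 bases of the locus overlap Hmgxb3 on the opposite strand, which had 3.43, 2.99 and 3.45 TPM. The sources used here do not say whether counting was strand-specific, so reads there could have gone to either gene.

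The 2 beta chain genes lie close to each other on chromosome 15 and point in opposite directions, Csf2rb at 78325752 to 78353847 on the plus strand and Csf2rb2 at 78282507 to 78305721 on the minus strand. Csf2rb2 had 54.0, 45.4 and 49.8 TPM and Csf2rb had 41.3, 33.3 and 34.0 TPM in replicates 1, 2 and 3. Csf2rb2 was higher in every library, by 1.31, 1.36 and 1.46 times, and the ranges did not overlap. Against the expressed-gene median, Csf2rb2 stood 2.91 ± 0.07 and Csf2rb 2.45 ± 0.02 log2 units higher (limma, adjusted p = 3.33e-05 and 3.43e-05).

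These genes are near copies, so reads from identical stretches could have gone to either gene, which was not tested. Their coding sequences of 2637 bases in Csf2rb2 and 2691 bases in Csf2rb matched at 95.2% of 2631 aligned positions, with 126 mismatches and a longest identical run of 242 bases. Windows of 75 bases found in another gene made up 11.1% of the Csf2rb2 and 11.0% of the Csf2rb transcript, and for 31 bases 30.9% and 30.2%. The least alike 100 coding bases that align without a gap are shown 5′ to 3′ from the GENCODE M21 transcripts, with the 17 mismatches in capitals.
Csf2rb2, coding bases 317 to 416: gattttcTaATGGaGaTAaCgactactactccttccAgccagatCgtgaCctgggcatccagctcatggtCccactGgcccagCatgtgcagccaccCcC
Csf2rb, coding bases 314 to 413: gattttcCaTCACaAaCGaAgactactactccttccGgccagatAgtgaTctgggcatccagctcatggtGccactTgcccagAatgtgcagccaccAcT
The mismatches cluster at the start of the stretch and are single bases farther on.

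Csf2ra, the gene of the GM-CSF receptor alpha chain, lies on chromosome 19 (61223957 to 61228429, minus strand) and had 17.2, 16.7 and 18.6 TPM in replicates 1, 2 and 3. It was 1.41 ± 0.18 log2 units above the expressed-gene median (limma, adjusted p = 0.000361). The beta chains together exceeded the alpha chain on the TPM scale by 5.53, 4.72 and 4.51 times. The ligand gene Csf2 stood at 0.616, 0.872 and 1.63 times the level of Csf2ra, so that it was higher than the alpha chain only in replicate 3.

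Csf3r, the G-CSF receptor gene, lies on chromosome 4 (126024550 to 126044440, plus strand) and had 13.5, 12.8 and 14.4 TPM in replicates 1, 2 and 3. It was 1.04 ± 0.17 log2 units above the expressed-gene median (limma, adjusted p = 0.000762), just past the threshold of 1, and without replicate 3 it was at 0.96. Its level exceeded that of its ligand gene Csf3 by 21.5, 16.4 and 14.1 times. Windows of 31 bases found in another gene made up 27.0% of its transcript, and windows of 75 bases 3.76%. Most of the shared windows were in a processed pseudogene on chromosome 19, AC105061.2, at 0.01, 0.01 and 0 TPM. Neutrophil markers, given above, were low but not absent, and their part in the Csf3r level was not tested.

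Ordered by mean TPM, the members ran Csf1r, Csf1, Csf2rb2, Csf2rb, Csf2, Csf2ra, Csf3r, Csf3 and Il34. Of the 8 pairs of neighbours in this order, 7 did not overlap over the 3 libraries, and the exception was Csf2 with Csf2ra. The range of Csf2 also took in all 3 values of Csf3r. The receptor genes summed to 372, 301 and 336 TPM and the ligand genes to 98.3, 85.9 and 96.1 TPM in replicates 1, 2 and 3. With only genes of at least 5 TPM in the expressed-gene median, 4 members remained above it, beside 1422 of all 13327 genes tested. Csf2, Csf2ra and Csf3r then stood at 0.32, 0.38 and 0.01 log2 units.

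Csf2 was the member that differed most between the libraries. Scaled by TMM (trimmed mean of M values, which corrects for library composition), it had 10.1, 17.3 and 35.6 CPM in replicates 1, 2 and 3, a span of 3.51 times. Its variation exceeded that of genes of like abundance (edgeR goodness of fit, Benjamini-Hochberg adjusted p = 3.30e-10), a call made for 2.28% of 12330 genes and for 1 of the 8 members with at least 10 counts in every library. The SD of its log2 CPM was 0.91, against a median of 0.12 over all genes tested, and 98.1% of genes had a lower SD. The call was also made without replicate 1, without replicate 2 and without replicate 3, with adjusted p = 4.81e-05, 1.50e-06 and 0.0381. On the estimated counts of the second deposited quantification it was made with adjusted p = 3.56e-09.

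**Figure D3:**
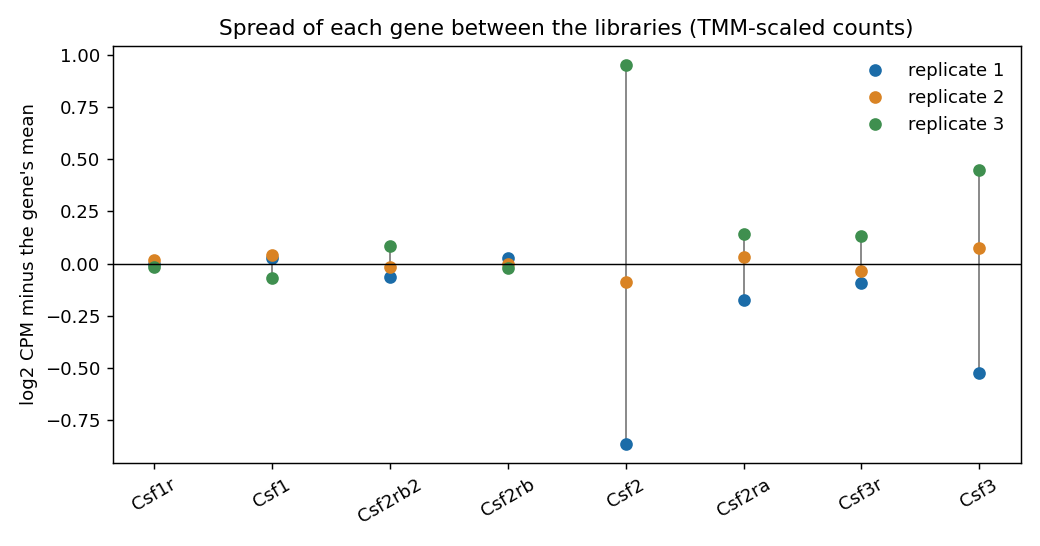
Log2 CPM of each member in each library after TMM scaling, minus the member's mean over the 3 libraries; points are replicates 1, 2 and 3 and the grey line joins the lowest and highest. Csf2 spans 3.51 times and Csf3 1.96 times, with replicate 3 highest in both, while Csf1r spans 1.03 times.

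Csf3 had 1.25, 1.88 and 2.44 CPM after the same scaling and spanned 1.96 times. It was lowest in replicate 1 and highest in replicate 3, as was Csf2, but did not pass the test (adjusted p = 1). The exact Poisson intervals of its unscaled CPM, 0.950 to 1.75 in replicate 1 and 2.00 to 2.80 in replicate 3, did not overlap, for counting error only. Csf1r had 1682, 1704 and 1663 CPM, an SD of 0.02 on the log2 scale that was lower than in all but 2.45% of genes. Csf2rb and Csf1 spanned 1.03 and 1.08 times, and 4.90% and 21.3% of genes had a lower SD than these. Csf2rb2, Csf3r and Csf2ra spanned 1.11, 1.17 and 1.24 times. Receptor genes therefore varied by at most 1.24 times, against 3.51 times for Csf2.

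The direction in Csf2 was shared with many other genes. Of the 281 genes whose variation passed the test, 210 were highest in replicate 3 and 202 of these were lowest in replicate 1. Replicate 3 was also the deepest library, and the share of TPM of coding genes on retained-intron transcripts was 2.72%, 3.06% and 3.52% in replicates 1, 2 and 3. The part of depth or of such RNA in the Csf2 difference was not tested. Csf2 has 1 annotated transcript, so no retained-intron share could be formed for it, and the antisense gene Gm12223 that overlaps it was listed at 0 in all 3 libraries.

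The 44 annotated transcripts of the members were read from 2 deposited quantifications, one made from transcriptome alignments (called the first here) and one made straight from reads (the second). Csf1 transcripts differ in the coding sequence and in the 3′ UTR. The long coding sequence of 1659 bases encodes the precursor that is secreted after cleavage, and the short one of 774 bases encodes a form that stays on the cell surface. Transcripts with the long coding sequence, Csf1-201 and Csf1-203, took 75.7% ± 0.484 of the gene's TPM in the second quantification and 67.6% ± 2.48 in the first (SD, n = 3). The short form Csf1-202 took 2.45% ± 0.756 in the second and 17.7% ± 1.52 in the first, so its share was not settled by these data. The incomplete Csf1-205 took 17.6% ± 3.40 in the second and 13.9% ± 3.14 in the first. A 3′ UTR of 2111 bases, found in Csf1-201 and Csf1-202, was on 73.2% ± 0.942 of the TPM in the second and 81.8% ± 2.99 in the first.

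Csf1r showed the largest disagreement. Its transcripts Csf1r-202 and Csf1r-201 share a coding sequence of 2934 bases and end in 3′ UTRs of 1669 and 654 bases. Csf1r-202 took 6.22%, 4.59% and 4.70% of the TPM in the second quantification, against 57.4%, 86.4% and 70.1% in the first, in replicates 1, 2 and 3. Csf1r-201 took 68.6%, 58.4% and 61.3% in the second, against 41.1%, 13.5% and 17.5% in the first. The incomplete transcript Csf1r-205 took 25.1%, 36.9% and 33.8% in the second, against 1.5%, 0% and 12.4% in the first. Which 3′ end of Csf1r was used could thus not be read from these values.

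The remaining receptors had 1 leading coding transcript or a pair with the same coding length. Csf2rb2-201 took 90.0% ± 1.06 in the second quantification and 95% ± 1.25 in the first. Csf2rb-201 took 68.5% ± 5.97 in the second and 96.5% ± 0.989 in the first, while the incomplete Csf2rb-202 took 19.4% ± 8.72 in the second and 0% in the first. Csf3r-201 and Csf3r-202, both with 2514 coding bases, took 42.7% and 46.6% in the second and 64.1% and 17.7% in the first. Coding transcripts together took 67.0% ± 2.45 of Csf2ra in the second and 65.2% ± 3.40 in the first, with Csf2ra-201 at 65.1% ± 3.44 and 65.2% ± 3.40. Csf3r had the next lowest coding share, at 89.3% ± 4.52 in the second and 81.8% ± 5.70 in the first. Retained-intron transcripts took 16.4% ± 1.36 of Csf2ra in the second and 18.7% ± 3.23 in the first, and the non-coding Csf2ra-204 took 16.6% ± 2.43 in the second and 16.1% ± 2.33 in the first. In Csf2rb the retained-intron share in the first quantification was lowest in replicate 1 at 0.751% and highest in replicate 3 at 2.97%, with 1.14% in replicate 2. The larger share in Csf2ra was highest in replicate 2, with 15.5%, 21.9% and 18.8% in replicates 1, 2 and 3 of the first.

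**Figure D4:**
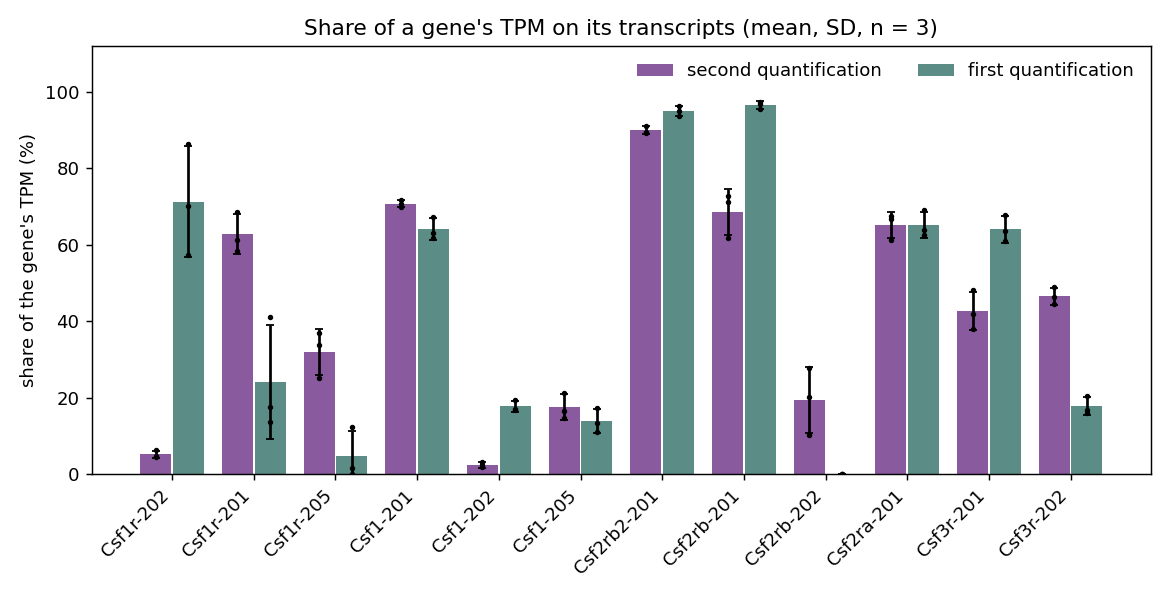
Share of the gene's TPM on selected transcripts in the second (left bar of each pair) and first (right bar) quantification, as the mean over 3 libraries with SD and each library as a point. The quantifications are apart for Csf1r-202 (5.17% in the second, 71.3% in the first) and alike for Csf2ra-201 (65.1% in the second, 65.2% in the first).

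Summed per gene, the quantifications were closer. The ratio of the second to the first was centred on each library's median, because the second gave lower TPM for most annotated genes. After centring, 7 members could be tested and none passed the call of adjusted p under 0.05 and 1 log2 unit (limma, Benjamini-Hochberg), which 2.72% of 9481 genes passed upward and 1.93% downward. At an unadjusted p under 0.05 there were 3, Csf1r at 0.51 ± 0.17, Csf2rb at 0.36 ± 0.13 and Csf2rb2 at −0.10 ± 0.02 log2 units, with adjusted p = 0.0210, 0.0232 and 0.0271. The other 4 lay between −0.13 and −0.05 log2 units. The Csf1r sums include the incomplete Csf1r-205, at 40.45, 49.6 and 34.26 TPM in the second and 3.69, 0 and 27.21 TPM in the first. The part of such short transcripts in the per-gene differences was not tested. The order of the beta chains in per-gene sums did depend on the quantification. Csf2rb2 had 25.2, 18.1 and 15.9 TPM and Csf2rb had 25.2, 20.1 and 14.1 TPM in the second, ratios of 1.00, 0.899 and 1.13 that leave neither higher throughout. Their leading transcripts kept the order in the second, Csf2rb2-201 with 22.5, 16.5 and 14.2 TPM and Csf2rb-201 with 18.3, 12.4 and 10.1 TPM. The Csf2rb sum there includes 5.11, 5.57 and 1.45 TPM on the incomplete Csf2rb-202, which had 0 TPM in the first. In the second quantification Csf2, Csf2ra and Csf3r stood 0.79, 0.87 and 0.45 log2 units above that quantification's own expressed-gene median, under the threshold of 1.

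Genes that work with the family were read from fixed lists, by the same test as the members. Of the other users of the beta chains, Il3ra, the alpha chain for IL-3, had 11.1, 12.2 and 11.8 TPM and was not called, since its difference of 0.83 ± 0.22 log2 units was under 1 (limma, adjusted p = 0.00288). Il5ra, the alpha chain for IL-5, had 0, 0.02 and 0 TPM, and the ligand genes Il3 and Il5 had no counts in any library. Of 2 other receptors reported for IL-34, Sdc1 was below the expressed-gene median with 0.81, 0.64 and 1.23 TPM (log2 difference −2.78 ± 0.46) and Ptprz1 had no counts. Among 4 genes of the machinery that sheds CSF1R and cell-surface CSF1, Adam17 was the highest with 33.5 ± 4.17 TPM. The 3 of them that could be tested lay above the median, where 20.5% of all genes tested did so. The inhibitor Timp3, at 0.0333 ± 0.0208 TPM, was too low to be tested.

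Of 26 genes of signalling below the receptors, 14 lay above and 3 below the expressed-gene median, with a median log2 difference of 1.17, against −1.06 over all genes tested. The highest was Tyrobp, the adaptor DAP12 that cooperates with CSF1R, at 681 ± 146 TPM, and the lowest was Fgr, a Src-family kinase, at 0.297 ± 0.0751 TPM. In this list 1 gene varied between libraries, Socs1, the feedback inhibitor of JAK kinases, with 4.44, 2.48 and 1.78 TPM in replicates 1, 2 and 3 (edgeR goodness of fit, adjusted p = 0.0128). It was named after its values were seen, and 1 of 26 is near the 2.28% of all genes called. Of 11 transcription factors known to act on Csf1r or in macrophages, 8 lay above and the other 3 were not called, from Spi1, which encodes PU.1, at 75.1 ± 12.2 TPM to Cebpa at 9.19 ± 0.602 TPM. Of 8 genes that set the decay or stability of such mRNAs, 6 lay above and the other two were not called. Zfp36, which encodes tristetraprolin, was the highest of these at 189 ± 34.9 TPM, and Rc3h1, which encodes Roquin-1, the lowest at 9.42 ± 1.16 TPM. Of all 55 listed genes, 50 could be tested, and 31 lay above and 4 below, where 20.5% of all genes tested lay above and 50.6% below. With only genes of at least 5 TPM in the expressed-gene median 20 lay above, beside 1422 of all 13327 genes.

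For the 3 members with most counts, the protein-coding genes whose TPM was most like theirs in the 3 libraries were looked up among 11185 genes, by the root mean square difference in log2 TPM. Nearest to Csf1r were Tnfrsf1b, which encodes TNF receptor 2, at 0.0888 and Gabarap, an autophagy gene, at 0.106. Nearest to Csf1 were Mif, a macrophage cytokine gene, at 0.0282 and Spi1 at 0.0374. Nearest to Csf2rb2 were Ndfip1, an adaptor of ubiquitin ligases, at 0.0280 and Ptbp3, an RNA-binding protein gene, at 0.0311. Such nearness is common, since 23, 105 and 131 genes lay within 0.2 log2 units of Csf1r, Csf1 and Csf2rb2, and it carries no test over 3 libraries.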

How the data were processed

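The members, the gene lists and the tests were chosen with earlier results of these data known. Per the deposited text descriptions, the authors used mm10 with the GENCODE M21 annotation. The sources used here name no aligner or quantifier. Per the file headers, the first quantification holds expected counts, TPM, FPKM and intervals of TPM per gene and transcript, while the second has, per transcript, estimated counts and TPM. The deposited TPM values are shares over all entries, which include spike-ins and small RNAs. Deposited FPKM served only as an alternative.

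Levels were tested with limma 3.58.1 (R 4.3.3) as log2(TPM + 0.1) minus each library's median over 8747 protein-coding genes averaging 1 TPM or more, for symbols with a mean of at least 0.1 TPM. A call needed an adjusted p under 0.05 (Benjamini-Hochberg over all genes tested) and 1 log2 unit. Variation was tested with edgeR 4.0.16 (goodness of fit at the trended dispersion) on expected counts rounded to whole numbers, for genes reaching 10 counts in each library; log2 CPM used a prior count of 2. Annotated genes held 33671556 (replicate 1), 47764593 (replicate 2) and 59332546 (replicate 3) counts, and 3 counts are 0.0891, 0.0628 and 0.0506 CPM. Intervals are exact Poisson at 95% and, like this floor, cover counting error only. The quantifications were compared with limma on log2 ratios with the same pseudocount, for genes averaging 1 TPM or more in one of them. The one-sample limma step, shared by the levels and the quantifications, and the edgeR step were run on simulated counts or values before use. Coding sequences were aligned with Biopython 1.88.

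All members were named, as were the highest and lowest gene by mean TPM of each list, every gene of the beta chain and IL-34 receptor lists, the highest gene of a marker list and the 2 genes nearest to each of the 3 members with most counts. Marker lists other than the macrophage and neutrophil ones are given by their sums. Alternatives were other pseudocounts, filters, reference genes and units, DESeq2 1.42.0 size factors, a common dispersion, no centring, the second quantification and leaving out each library.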

Additional observations from a re-analysis of the deposited data

How the results depend on the processing

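Of 327 values recomputed under other settings, 267 kept their direction and their side of the threshold or, for counts, stayed within 1.5 times and, for untested values, within 1 SD; 10 lost a call, 5 gained one, 5 changed sign and 40 moved. The number of members above the expressed-gene median was 4, not 7, with genes of at least 5 TPM as reference and in the second quantification, 6 with a pseudocount of 1 TPM, and 5 to 7 with 1 library left out. Over all genes tested, 1422 of 13327 lay above with that reference and 2070 of 13369 in the second quantification. With that pseudocount 2566 of 13327 did so, and with 1 library left out 2722 to 2727. The number below was 2, not 1, with no filter on low values, since Il34 was then tested. Without that filter 14489 of all 21066 genes tested lay below. Listed pathway genes above numbered 20, not 31, with genes of at least 5 TPM as reference. Members lower in the second quantification numbered 5, not 0, without centring, where Csf1r and Csf2rb stood at −0.75 and −0.90 log2 units. The library medians used for centring were themselves −1.02, −1.22 and −1.52 log2 units in replicates 1, 2 and 3. The share of all genes called lower without centring is not given here. The count of 5 is therefore no result about the members. Neighbours in the order of levels that did not overlap numbered 4, not 7, in the second quantification. Overlap was read from the ranges of raw TPM, without pairing values within a library. Among the overlapping pairs there, Csf1 was still above Csf2rb in all 3 libraries, by 0.62 ± 0.08 log2 units. The other overlapping pairs did not keep the same order in every library. Without the filter the median of the ligand genes was −0.77 log2 units and that of the beta chain partners −2.57, and the partners were at −0.20 with genes of at least 5 TPM as reference, where Il3ra alone was tested. These changes follow from the settings by construction. Without the filter, Il34 entered the ligand median and Il5ra the partner median, both with means under 0.1 TPM. A reference of more abundant genes lowers the differences from it. No cause beyond these settings was tested. The variation of Csf2 was called under every alternative run. Csf3 rests on 44 to 141 counts and Il34 on at most 1, so their levels are the least precise. No paired analysis was possible because the labels give 1 group.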
